A study of Mus musculus with 24 samples.

Results

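The genes described here are 44 nuclear genes of the mitochondrial core of fuel oxidation: 5 of the pyruvate dehydrogenase complex, 11 of the tricarboxylic acid (TCA) cycle, 4 of respiratory complex II, 9 of complex III and 15 of ATP synthase. They were taken by name from 18193 genes that the array annotation pairs with a probe set of 1 symbol, and all 44 were found, 43 under the listed symbol and Atp5f1 under its RefSeq synonym Atp5pb. A gene with several probe sets was represented in each tissue by the brightest of them, judged on its mean in that tissue. The members were listed by name, but with earlier results of these data known. The shares of all genes set beside them below are therefore descriptive.

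Liver and hindleg skeletal muscle were taken from newborn C57BL/6 pups (age day 0) whose dams ate 1 of 4 diets from pregnancy day 1 to birth, with 3 arrays for each of the 4 diets in each tissue and 24 arrays in all. NP dams had 20% casein and LP dams 8% casein. NPtau and LPtau dams had the same foods with 1% taurine in the drinking water. The diets were given to the dams, so every pup was exposed before birth, and no group carried a genetic change. The labels call the arrays biological replicates and do not say how many litters they came from or whether the liver and the muscle array of a number came from the same pup. The sex read from Xist and Y-linked genes was the same in the liver and the muscle array of all 12 pairs of the same diet and number, and the deviations of these pairs from their group means correlated from 0.02 to 0.20, above 0.1 in 5 of 12. If pups shared a litter, the p-values below measure a spread that is partly within litters. The 2 tissues had been normalized separately, so only differences between diets, never levels, are set side by side across tissues.

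Pyruvate dehydrogenase turns pyruvate into acetyl-CoA inside the mitochondrion, and the TCA cycle oxidizes that acetyl-CoA to carbon dioxide while loading electrons on carriers. Complex II is both an enzyme of the cycle (succinate dehydrogenase) and an entry point to the respiratory chain. Complex III passes the electrons from ubiquinol to cytochrome c and pumps protons, and ATP synthase lets the protons flow back to make ATP. Around birth the liver takes on fatty acid oxidation and glucose production as milk becomes the fuel, and skeletal muscle fibres are still maturing. Many of these genes carry binding sites for NRF1, for GABP (an ETS factor also called NRF2) and for oestrogen-related receptors near their start sites, as described for nuclear genes of respiration in general.

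Promoters of 37 of the 44 members were found in the RefSeq promoter table (build GRCm38.p6, from 250 bases before to 50 bases after the gene start, 27025 genes in all). They are shown here for 4 of the 9 members whose response to the low protein diet was unequal in liver and muscle, since these 4 carry the letters of an ETS site, and for Sdhd, which carries an ETS word and an oestrogen-related receptor word. Capitals mark CCGGAAG (GABP and other ETS factors), GCGCATGC (NRF1) and AAGGTCA (oestrogen-related receptors), on either strand, written 5′ to 3′ along the gene's own strand. Sdhb lies on chr4:140961021-140961320 (plus strand), Uqcr11 on chr10:80406772-80407071 (minus), Uqcrh on chr4:116075021-116075320 (minus), Idh3b on chr2:130284402-130284701 (minus) and Sdhd on chr9:50603800-50604099 (minus).
Sdhb: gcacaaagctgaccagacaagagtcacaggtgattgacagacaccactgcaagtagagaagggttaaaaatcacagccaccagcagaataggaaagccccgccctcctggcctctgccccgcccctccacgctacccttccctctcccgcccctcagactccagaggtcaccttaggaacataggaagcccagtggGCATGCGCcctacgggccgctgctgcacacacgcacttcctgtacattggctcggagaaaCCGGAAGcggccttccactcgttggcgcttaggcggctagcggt
Uqcr11: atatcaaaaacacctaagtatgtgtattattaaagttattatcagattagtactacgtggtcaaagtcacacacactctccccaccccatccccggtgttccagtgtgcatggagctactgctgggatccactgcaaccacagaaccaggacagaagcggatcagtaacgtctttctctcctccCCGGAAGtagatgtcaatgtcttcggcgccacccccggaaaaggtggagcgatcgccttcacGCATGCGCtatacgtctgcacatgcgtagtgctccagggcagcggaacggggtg
Uqcrh: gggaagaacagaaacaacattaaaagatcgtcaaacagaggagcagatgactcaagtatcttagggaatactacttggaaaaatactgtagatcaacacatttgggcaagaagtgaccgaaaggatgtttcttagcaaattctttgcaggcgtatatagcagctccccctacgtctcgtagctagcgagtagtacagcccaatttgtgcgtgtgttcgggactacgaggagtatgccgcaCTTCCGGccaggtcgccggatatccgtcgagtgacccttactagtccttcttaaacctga
Idh3b: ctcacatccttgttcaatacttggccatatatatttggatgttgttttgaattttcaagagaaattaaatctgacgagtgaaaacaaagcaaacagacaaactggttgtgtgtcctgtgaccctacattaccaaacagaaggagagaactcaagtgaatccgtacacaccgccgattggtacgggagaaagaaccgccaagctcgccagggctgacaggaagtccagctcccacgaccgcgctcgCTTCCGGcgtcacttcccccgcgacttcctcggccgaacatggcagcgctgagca
Sdhd: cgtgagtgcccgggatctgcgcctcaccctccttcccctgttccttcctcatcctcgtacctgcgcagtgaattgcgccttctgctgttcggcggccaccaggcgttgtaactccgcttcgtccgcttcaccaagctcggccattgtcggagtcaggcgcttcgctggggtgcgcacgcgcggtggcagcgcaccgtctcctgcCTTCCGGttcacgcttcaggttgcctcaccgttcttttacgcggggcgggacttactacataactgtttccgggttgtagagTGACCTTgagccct

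The ETS word CCGGAAG was present in a promoter of 12 of the 37 members (32.4%) and of 9.93% of all 27025 genes. A gene with several listed promoters, such as Ogdh, was counted if any of them held the word, so it had more chances of a match. In Sdhb it began at base 7 of the gene, and in Idh3b, Uqcrh, Sdhd and Uqcr11 its first base lay 5, 10, 46 and 66 bases before the start. The NRF1 word GCGCATGC was in 7 of 37 (18.9%, against 3.05% of all), including Sdhb and Uqcr11. The oestrogen-related receptor word AAGGTCA was in 6 of 37 (16.2%, against 5.38%). YY1's AAGATGGC was in 4 of 37 (10.8%, against 3.19%), CREB's TGACGTCA in 3 of 37 (8.11%, against 2.03%), and Sp1's GGGCGG in 17 of 37 (45.9%, against 38.2%). None of these words shares letters with another in the capitals shown. Of the 9 members with an unequal response, 8 had a promoter in the table. The ETS word was in 4 of these 8, the NRF1 word in 2, the Sp1 word in 3, and the other 3 words in 0. These are matches of letters in a short window and do not show binding.

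The arrays held the markers of their labelled tissue. In liver all 10 hepatocyte markers lay above the level of the median gene and 2 of 12 skeletal muscle markers did, and in muscle all 12 skeletal muscle markers and 2 of 10 hepatocyte markers did. All 44 members lay above the median gene in both tissues. The muscle arrays varied more: the standard deviation between replicates of the members' mean was 0.218 in muscle and 0.109 in liver, on the log2 scale. The LP and LPtau muscle arrays numbered 1 stood apart from the other muscle arrays, with median correlations of 0.957 and 0.966 where the others had 0.979 or more. By Xist and Y-linked genes, 2 of 3 arrays in LP and in NPtau and 1 of 3 in NP and in LPtau came from female pups, in each tissue. All values below are log2 probe set levels and differences of them, so a difference of 1 is a doubling. A member is called when limma's p-value, adjusted by Benjamini and Hochberg over all 18193 genes of the comparison, is under 0.05.

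LP pups differed from NP pups in opposite directions in the 2 tissues. In liver 42 of 44 members had a higher mean in LP than in NP pups, with a median difference of 0.323 where the median of all genes was 0.053. In muscle all 44 had a lower mean, with a median of -0.505 against -0.011 for all genes. Of all genes 58.5% were higher in liver and 47.6% in muscle. These counts use the brightest probe set of a gene. Of the 31 members with several probe sets, 10 in liver and 6 in muscle had probe sets that did not all point one way. Single members seldom passed the test within a tissue. In liver limma called 1 member, Atp5a1, against 2.34% of all genes. In muscle it called 0, against 0.126% of all genes. At an unadjusted p under 0.05 there were 25 members in liver (22.7% of all genes passed this) and 24 in muscle (10.8%). The 3 LP arrays lay wholly above the 3 NP arrays for 27 members in liver (18.3% of all genes) and wholly below them for 33 members in muscle (11.6%). Because whole tissue was measured, fewer cells of a type and less RNA per cell cannot be told apart.

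**Figure D1:**
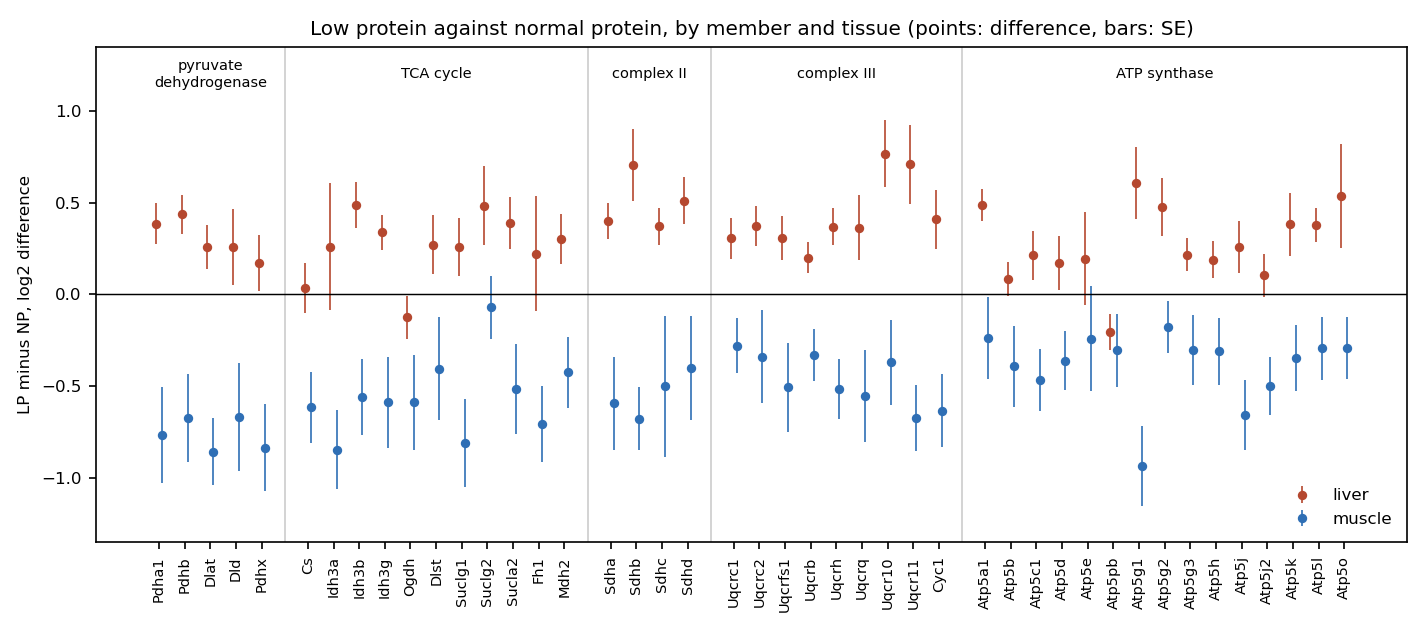
LP minus NP log2 difference (y axis) of each of the 44 members (x axis, by enzyme group) in liver and muscle; points are differences of the means of 3 arrays and bars are limma's standard errors. Liver points lie above 0 except Ogdh (-0.125) and Atp5pb (-0.204), and all muscle points lie below 0, from -0.071 (Suclg2) to -0.935 (Atp5g1).

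Other values of the same arrays are given next, first for muscle. The difference between the 3′ and the 5′ control probes of beta-actin, a measure of RNA integrity that rises when transcripts are shortened, was 0.41, 0.28 and 0.47 in the 3 LP muscle arrays and 0.20, 0.16 and 0.28 in the NP ones. It was 0.12 to 0.24 in the other 6 muscle arrays. The same measure on Gapdh was -0.01 to 0.15 in LP and 0.015 to 0.083 in NP muscle. Fast fibre markers were lower in LP muscle: 8 of 8 were negative with a median of -1.78, and 3 were called (0.126% of all genes were). Mybpc2, a fast myosin-binding protein, fell by 4.50 (SE 0.40, 22.6-fold, adjusted p = 0.00228 with limma), Pvalb, the calcium buffer parvalbumin, fell by 4.14 (SE 0.32, 17.7-fold, adjusted p = 0.000987), and Actn3, a fast-fibre actinin, fell by 2.98 (SE 0.37, 7.87-fold, adjusted p = 0.0211). The mean over the 8 fast fibre genes ran from -2.43 to -1.71 in the LP arrays and from -0.12 to 0.12 in the NP arrays. The general skeletal muscle markers were negative in 12 of 12, with a median of -0.298. Of these 0 were called (0.126% of all genes) and 4 had an unadjusted p under 0.05 (10.8%). Relative to NP, their group means were -0.172 in NPtau, -0.402 in LP and -0.104 in LPtau. The members had -0.114, -0.504 and -0.042 in the same order, and the fast fibre markers -0.388, -2.1 and -0.5. Slow fibre and cardiac type markers were negative in 5 of 8 (median -0.323), with group means of -0.094 in NPtau, -0.382 in LP and 0.033 in LPtau. Brown fat markers were negative in 5 of 5 (median -0.326), with 0 called (0.126% of all genes) and 0 at an unadjusted p under 0.05 (10.8%). The array means of the brown fat list ran from -0.633 to -0.573 in LP and from -0.212 to 0.368 in NP. They ran from -0.998 to 1.023 in NPtau and from -1.324 to 0.15 in LPtau. The group mean of this list was -0.808 in LPtau and -0.611 in LP. Hepatocyte markers in the muscle arrays were positive in 10 of 10 (median 0.551), with array means of 0.10 to 1.83 in LP and -0.20 to 0.18 in NP. These means ran from 0.51 to 1.01 in NPtau and from -0.39 to 1.08 in LPtau. The part of these values in the members' shift was not tested.

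In liver the beta-actin measure overlapped between LP (0.38 to 0.69) and NP (0.44 to 0.76). Hepatocyte markers had a median difference of -0.078 with 0 of 10 called (2.34% of all genes) and 0 at an unadjusted p under 0.05 (22.7%). Haematopoietic and immune markers were negative in 10 of 11 (median -0.852), and 2 were called (2.34% of all genes were). Rag1, a recombinase of developing lymphocytes, fell by 2.01 (SE 0.28, adjusted p = 0.0114 with limma), and Cd79b, a B-cell receptor chain, fell by 1.55 (SE 0.33, adjusted p = 0.0401). Fibroblast and vessel markers were negative in 9 of 10 (median -0.606), and 2 were called (2.34% of all genes were). They were the endothelial genes Pecam1 and Cdh5, at -0.80 (SE 0.14, adjusted p = 0.0211 with limma) and -1.11 (SE 0.22, adjusted p = 0.0336). Erythroid markers were negative in 9 of 11 (median -0.318) and cell cycle genes in 9 of 9 (median -0.524), with 0 called. In each list 2 had an unadjusted p under 0.05, shares near that of all genes (22.7%). Brown fat markers were negative in 2 of 5, with 1 called (2.34% of all genes were). Fabp4, a fatty acid carrier of fat and endothelial cells, fell by 1.27 (SE 0.18, adjusted p = 0.0127 with limma). The part of these markers in the members' shift was not tested.

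Pyruvate dehydrogenase showed the deepest median among the 5 groups in muscle, -0.766, and a median of 0.259 in liver. In muscle all 5 members had their LP arrays below their NP arrays (11.6% of all genes did). Pdha1 encodes the catalytic subunit that is switched off by phosphorylation. Its muscle values were 11.39, 11.47 and 11.32 in NP and 10.50, 10.67 and 10.70 in LP, a difference of -0.77 (SE 0.26, 1.70-fold lower, adjusted p = 0.29 with limma). Its liver values were 9.79, 10.09 and 9.92 in NP and 10.38, 10.28 and 10.30 in LP, a difference of 0.39 (SE 0.11, 1.31-fold, adjusted p = 0.0921). In neither tissue did the 2 groups overlap. Pdhb, the partner subunit of Pdha1, had the largest liver difference of the group, with 10.72, 10.79 and 10.77 in NP and 11.19, 11.24 and 11.17 in LP (0.44, SE 0.11, adjusted p = 0.0574). Its muscle values were 11.56, 11.62 and 11.72 in NP and 10.65, 11.29 and 10.94 in LP. Dlat, the acetyltransferase core of the complex, had the smallest p of all members in muscle. It measured 9.99, 10.22 and 10.26 in NP muscle and 9.15, 9.64 and 9.11 in LP muscle (-0.86, SE 0.18, 1.81-fold lower, adjusted p = 0.103). The LP and NP arrays were separate, and the LP array numbered 2 lay nearest to NP for Pdhb and Dlat. Dlat's 3 probe sets did not all point one way in liver, where 2 of 3 were positive. Dld, the dihydrolipoamide dehydrogenase that other complexes share, had the smallest muscle difference (-0.67), and Pdhx, the binding protein that docks it, the smallest liver difference (0.17).

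In the TCA cycle the median difference was 0.271 in liver, with 10 of 11 members positive, and -0.590 in muscle, with 11 of 11 negative. Isocitrate dehydrogenase 3 is the NAD-linked enzyme of the cycle. Idh3b, one of its regulatory subunits, led in liver with 10.40, 10.75 and 10.49 in NP and 11.20, 10.93 and 10.98 in LP (0.49, SE 0.13, adjusted p = 0.0691 with limma). In muscle Idh3b measured 11.04, 11.24 and 11.21 in NP and 10.41, 10.74 and 10.67 in LP (-0.56, SE 0.21, adjusted p = 0.34). Neither pair of groups overlapped. Idh3a, the catalytic subunit, was the lowest of the cycle in muscle, with 11.80, 11.91 and 11.89 in NP and 10.66, 11.44 and 10.95 in LP (-0.85, SE 0.22, 1.80-fold lower, adjusted p = 0.147). In liver Idh3a was split without regard to diet: 1 array of NP (11.16), 1 of NPtau (11.27) and 1 of LP (11.35) lay above 11, and the other 9 ran from 10.15 to 10.62.

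Cs, citrate synthase, opens the cycle and is widely used as a measure of mitochondrial content. Its liver values overlapped (10.30, 10.35 and 10.10 in NP, 10.59, 10.24 and 10.03 in LP), with the smallest difference of the cycle, 0.03 (SE 0.14), and only 1 of its 3 liver probe sets was positive. Its muscle values did not overlap, with 12.05, 12.15 and 12.31 in NP and 11.36, 11.76 and 11.54 in LP (-0.62, SE 0.19, adjusted p = 0.253 with limma). Ogdh, the oxoglutarate dehydrogenase subunit, was negative in liver too. It measured 9.63, 9.49 and 9.55 in NP liver and 9.55, 9.41 and 9.33 in LP liver (-0.12, SE 0.12, adjusted p = 0.545). In muscle it measured 9.90, 9.90 and 9.89 in NP and 9.16, 9.63 and 9.14 in LP (-0.59, SE 0.26, adjusted p = 0.444). Its 2 liver probe sets pointed opposite ways. Suclg2, the GTP-forming subunit of succinyl-CoA ligase, had the smallest muscle difference of all members, with 8.94, 9.01 and 8.996 in NP and 8.54, 9.21 and 8.98 in LP (-0.07, SE 0.17, adjusted p = 0.948). The LP array numbered 2 was the highest of the 6, and without the LP array numbered 1 the difference was 0.117. The other members of the cycle lay between 0.22 and 0.48 in liver (Fh1 to Suclg2) and between -0.41 and -0.81 in muscle (Dlst to Suclg1).

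Complex II had the highest median difference of the 5 groups in liver, 0.457, and -0.549 in muscle. All 4 members had LP arrays wholly above NP arrays in liver (18.3% of all genes), and 3 of 4 had them wholly below in muscle (11.6%). Sdhb, the iron-sulphur subunit, measured 10.61, 11.31 and 10.83 in NP liver and 11.73, 11.55 and 11.59 in LP liver (0.70, SE 0.20, 1.63-fold, adjusted p = 0.0813 with limma). In muscle it measured 11.65, 11.77 and 11.72 in NP and 10.81, 11.33 and 10.97 in LP (-0.68, SE 0.17, 1.60-fold lower, adjusted p = 0.151). It was the most shifted of complex II in both tissues. Sdha, the flavoprotein that oxidizes succinate, measured 11.02, 11.18 and 11.29 in NP liver and 11.56, 11.60 and 11.53 in LP liver (0.40, SE 0.10, 1.32-fold, adjusted p = 0.0574). In muscle it measured 11.48, 11.73 and 11.40 in NP and 10.76, 11.16 and 10.91 in LP (-0.59, SE 0.25, adjusted p = 0.426). The membrane anchors Sdhc and Sdhd had the smallest differences in one tissue each: Sdhc 0.37 (SE 0.10) in liver, where NP ran from 10.89 to 10.93 and LP from 11.25 to 11.33, and Sdhd -0.40 (SE 0.28) in muscle, where NP ran from 10.82 to 11.05 and LP from 10.17 to 10.80.

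In complex III all 9 members were positive in liver (median 0.369), 8 of them with separate arrays (18.3% of all genes were wholly higher). All 9 were negative in muscle (median -0.508), 6 with separate arrays (11.6% of all genes were wholly lower). Uqcr10, a small subunit of the complex, measured 11.10, 11.53 and 11.26 in NP and 12.20, 12.02 and 11.98 in LP liver (0.77, SE 0.18, 1.70-fold, adjusted p = 0.0524 with limma), the largest liver difference of all 44 members. Only 1 of its 3 liver probe sets was positive, and that was the brightest. In muscle Uqcr10 overlapped, with 11.33, 11.34 and 11.32 in NP and 10.74, 11.34 and 10.80 in LP (-0.37, SE 0.23). Uqcr11, another small subunit, measured 10.61, 11.21 and 10.92 in NP and 11.66, 11.55 and 11.66 in LP liver (0.71, SE 0.22, 1.64-fold, adjusted p = 0.099). Its muscle values were 11.39, 11.48 and 11.64 in NP and 10.57, 11.14 and 10.78 in LP (-0.68, SE 0.18, 1.60-fold lower, adjusted p = 0.166), the largest muscle difference of the complex. Uqcr11 has 1 probe set, whose groups were separate in both tissues.

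Cyc1, the haem-carrying cytochrome c1 subunit, measured 11.49, 12.15 and 11.71 in NP and 12.16, 12.18 and 12.25 in LP liver (0.41, SE 0.16). Its muscle values were 11.95, 12.02 and 12.22 in NP and 11.29, 11.75 and 11.24 in LP (-0.64, SE 0.20). Uqcrh, the hinge protein that helps cytochrome c dock, measured 12.03, 11.91 and 11.93 in NP and 12.28, 12.47 and 12.24 in LP liver (0.37, SE 0.10), and 12.49, 12.58 and 12.68 against 11.87, 12.28 and 12.05 in muscle (-0.52, SE 0.16). Groups were separate in both tissues for both genes. Uqcrc2, a core protein, measured 11.27, 11.57 and 11.42 in NP and 11.85, 11.71 and 11.82 in LP liver (0.38, SE 0.11, adjusted p = 0.0884 with limma), and in muscle it overlapped, with 11.73, 11.95 and 12.25 in NP and 11.32, 11.86 and 11.72 in LP (-0.34, SE 0.25). Uqcrc1, the other core protein, had the smallest muscle difference of the complex (-0.28, SE 0.15), and Uqcrb the smallest liver difference (0.20, SE 0.09).

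ATP synthase had the smallest median of the 5 groups in both tissues, 0.216 in liver with 14 of 15 positive and -0.311 in muscle with 15 of 15 negative. Atp5a1, the alpha subunit of the catalytic head, was the called member in liver. It measured 12.37, 12.57 and 12.51 in NP and 13.01, 12.90 and 13.00 in LP, and rose by 0.49 (SE 0.09, 1.40-fold, adjusted p = 0.0236 with limma, higher in 3 of 3 LP arrays than in any NP array). That call was lost without the NP array numbered 1 or 3 or the LP array numbered 2 or 3, with only the LP and NP arrays in the fit, and under other probe set rules, where the difference was 0.221 (adjusted p = 0.328) on the mean of all 3 and -0.024 (adjusted p = 0.972) on the one with the highest variance. In muscle Atp5a1 overlapped, with 13.04, 13.10 and 12.88 in NP and 12.58, 12.90 and 12.81 in LP (-0.24, SE 0.23, adjusted p = 0.805). Atp5b, the beta subunit that carries the active site, overlapped in liver, with 13.10, 13.25 and 13.24 in NP and 13.28, 13.17 and 13.39 in LP (0.08, SE 0.10). In muscle its groups were separate, with 13.43, 13.58 and 13.44 in NP and 12.99, 13.23 and 13.06 in LP (-0.39, SE 0.22, adjusted p = 0.599). Atp5pb, the b subunit of the peripheral stalk, was the single member with all 3 LP liver arrays below NP. It measured 12.71, 12.77 and 12.81 in NP and 12.54, 12.64 and 12.50 in LP (-0.20, SE 0.10, adjusted p = 0.245), and its 2 liver probe sets pointed opposite ways.

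The c subunit, which forms the rotating ring, is encoded by 3 genes whose mature proteins are the same and whose import sequences differ. Atp5g1 had the largest muscle difference of all members, with 11.95, 11.97 and 12.22 in NP and 10.84, 11.42 and 11.07 in LP (-0.94, SE 0.22, 1.91-fold lower, adjusted p = 0.125 with limma). In liver it measured 10.67, 11.36 and 10.96 in NP and 11.67, 11.45 and 11.69 in LP (0.61, SE 0.20, 1.52-fold, adjusted p = 0.111). Atp5g2 measured 11.92, 11.87 and 11.84 in NP and 11.47, 11.89 and 11.74 in LP muscle (-0.18, SE 0.14, the smallest muscle difference of ATP synthase), and 11.14, 11.25 and 11.23 against 11.62, 11.68 and 11.74 in liver (0.48, SE 0.16). Atp5g3 measured 13.46, 13.47 and 13.48 in NP and 12.95, 13.32 and 13.23 in LP muscle (-0.30, SE 0.19), and 13.23, 13.26 and 13.25 against 13.43, 13.49 and 13.46 in liver (0.22, SE 0.09). In muscle Atp5g1 and Atp5g3 were separate and Atp5g2 overlapped, and in liver all 3 were separate.

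Because these 3 genes serve the same ring, their ratios within an array were compared. In muscle the log2 ratio of Atp5g1 to Atp5g2, set to a mean of 0 in NP, was -0.14, -0.07 and 0.21 in NP and -0.80, -0.63 and -0.84 in LP (-0.756). The ratio of Atp5g1 to Atp5g3 was -0.09, -0.07 and 0.16 in NP and -0.68, -0.47 and -0.74 in LP (-0.631). Neither ratio overlapped between LP and NP, and in LPtau muscle they ran from -0.23 to 0.10 and from -0.01 to 0.10. Each had an exact two-sided permutation p of 0.1, the smallest that 3 arrays against 3 allow, or 0.2 adjusted over the 6 ratios compared. In liver the same differences were 0.131 and 0.391 (exact permutation p = 0.6 and 0.2, adjusted 0.72 and 0.3). The second Atp5g1 probe set gave 0.08 in muscle in place of -0.935, so the muscle ratios rest on the brighter probe set. The succinyl-CoA ligase pair, chosen after its values were seen, was also uneven: the ratio of Sucla2 (ATP-forming) to Suclg2 (GTP-forming) was -0.06, -0.04 and 0.10 in NP and -0.47, -0.43 and -0.44 in LP muscle (-0.448, exact permutation p = 0.1, adjusted 0.2). Low values of this ratio were not confined to LP: it was -0.003, -0.573 and -0.356 in NPtau and -0.485, 0.013 and -0.073 in LPtau muscle. In liver its LP minus NP difference was -0.092 (exact permutation p = 0.8). Only 1 of 3 Sucla2 probe sets was negative in muscle.

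**Figure D2:**
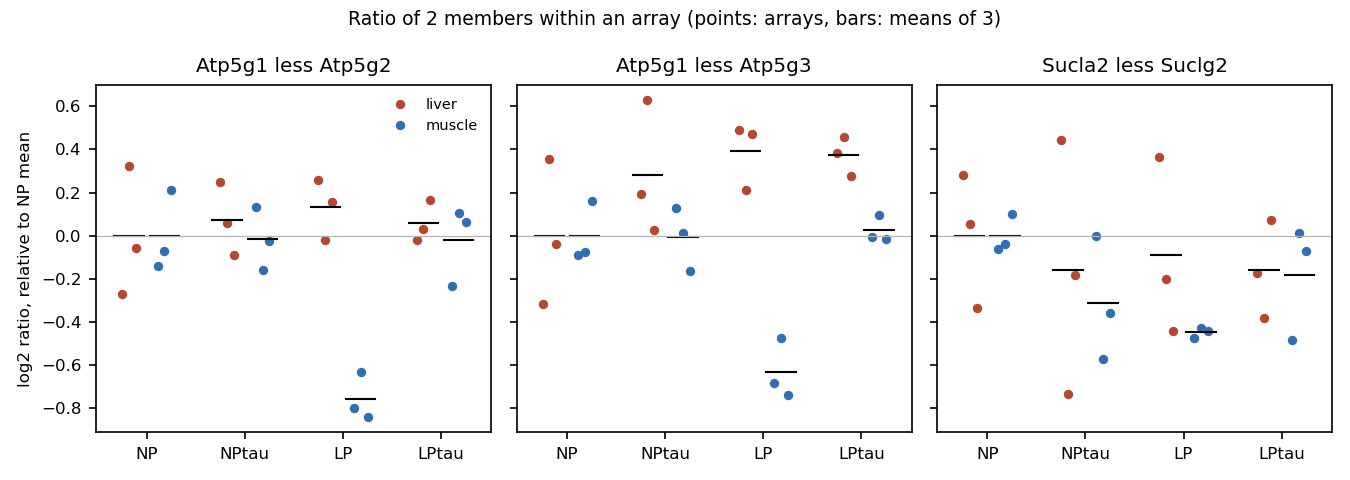
Log2 ratio of 2 members within an array (y axis, NP mean set to 0) by maternal diet (x axis) in liver and muscle; points are arrays and bars are means of 3. In LP muscle all 3 arrays lie below all NP arrays for each ratio, with differences of -0.756, -0.631 and -0.448. For Sucla2 less Suclg2 an NPtau (-0.573) and an LPtau (-0.485) muscle point lie below all LP points.

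The direct test of the opposite shifts compared LP minus NP in liver with LP minus NP in muscle in a fit over all 24 arrays. The difference of differences was positive for 44 of 44 members (55.6% of all genes), with a median of 0.857 where all genes had 0.050. It was called for 9 members, 20.5% of them, against 1.97% of all genes. The medians were 1.114 for pyruvate dehydrogenase, 0.910 for the TCA cycle, 0.956 for complex II, 0.887 for complex III and 0.655 for ATP synthase. The called members were Pdha1, Pdhb and Dlat of pyruvate dehydrogenase, Idh3b of the cycle, Sdhb of complex II, Uqcrh, Uqcr11 and Cyc1 of complex III, and Atp5g1 of ATP synthase. Atp5g1 had the largest value, 1.54 (SE 0.30, 2.91-fold, adjusted p = 0.0128 with limma). Uqcr11 and Sdhb followed with 1.39 (SE 0.29, adjusted p = 0.0188) and 1.38 (SE 0.27, adjusted p = 0.0126). The other 6 lay between 0.89 and 1.15, with adjusted p from 0.0167 to 0.0475. Cs, Ogdh and Atp5b, at 0.65, 0.46 and 0.48, were not called, and Atp5pb had the smallest value, 0.10 (SE 0.23, adjusted p = 0.852).

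A higher mean in LP liver together with a lower mean in LP muscle was seen in 42 of 44 members (95.5%) and 31.2% of all genes. All 3 LP arrays lay apart from all 3 NP arrays in that direction in both tissues for 21 members (47.7%) and for 2.03% of all genes. All 9 called members were among these 21. The number called depended on the arrays and the model. It was 5 with the pup's sex as a covariate and 1, Atp5g1, when liver and muscle arrays of the same diet and number, whose sex matched in 12 of 12, were treated as pairs. In that paired fit Dlat, Sdhb, Uqcrh and Uqcr11 had adjusted p of 0.0506, 0.0522, 0.0625 and 0.0651 with limma, and their differences were the same as in the unpaired fit. Which of the 2 fits holds depends on whether the pairs are single pups, which the labels do not say. It was 2 without the NP muscle array numbered 3, 3 without the NP liver array numbered 1, and 4 without the NP liver array numbered 3, the LP liver array numbered 2 or the LP muscle array numbered 1. It was 5 without the LP liver array numbered 3, the NP muscle array numbered 1 or 2 or the LP muscle array numbered 3. It was 18 without the LP muscle array numbered 2 and 17 without the LPtau muscle array numbered 1. Atp5g1 was called under all 27 alternatives tried, with values from 0.813 (all probe sets averaged) to 1.73, Sdhb under 26, and Dlat and Uqcr11 under 24. None of the 27 used the second, dimmer Atp5g1 probe set alone. Its LP minus NP difference was 0.164 in liver and 0.08 in muscle. Cyc1 and Pdha1 were called under 9.

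**Figure D3:**
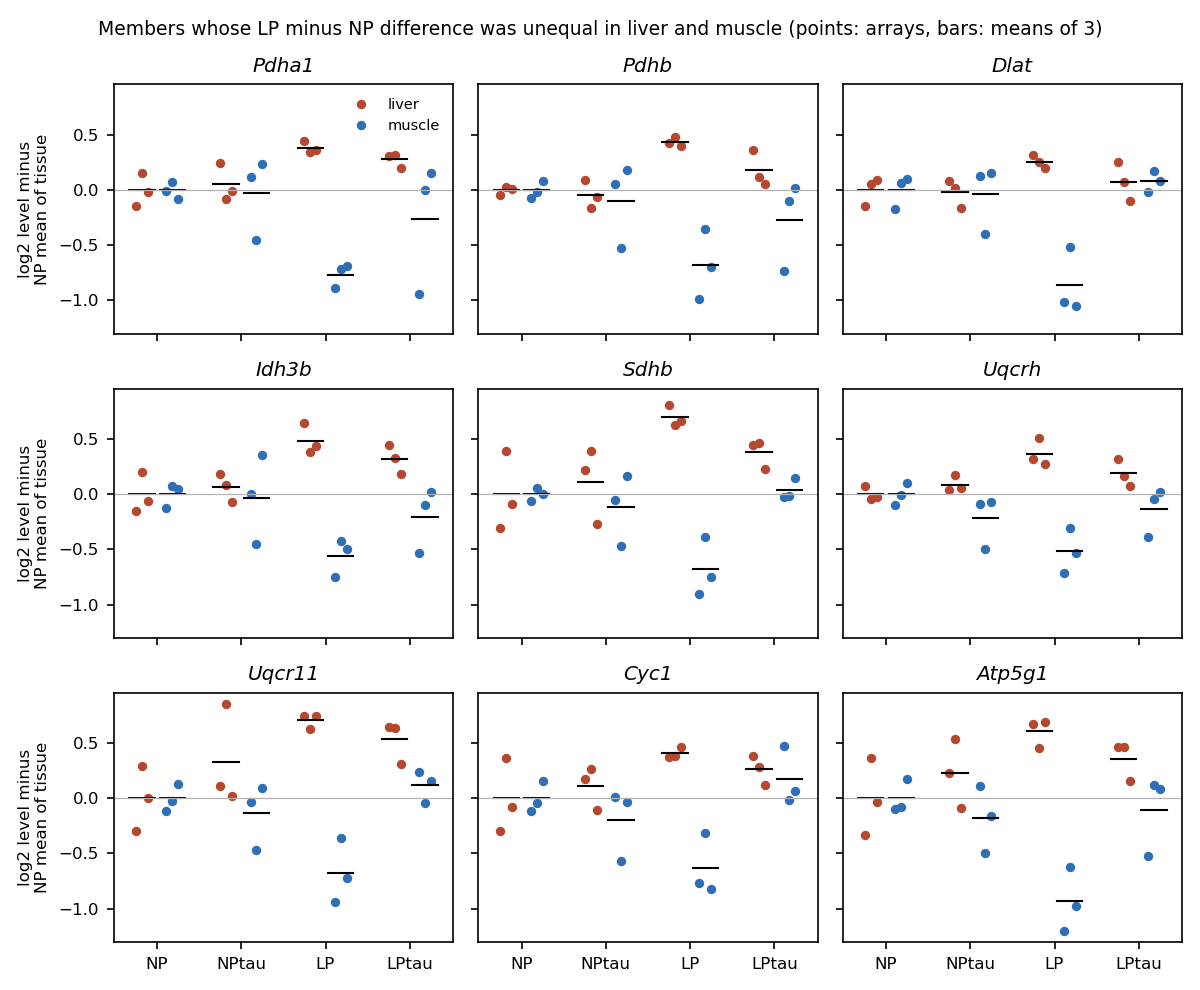
Log2 level of the 9 members called in the liver and muscle comparison, each array less the NP mean of its tissue (y axis), by maternal diet (x axis); points are arrays and bars are means of 3. In LP all liver points lie above the NP liver points and all muscle points below the NP muscle points. The lowest LPtau muscle point of Pdha1, Pdhb, Dlat, Idh3b, Uqcrh, Atp5g1 and, narrowly, Sdhb is the array numbered 1.

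LPtau muscle lay nearer to NP than LP muscle did. In muscle 42 of 44 members had a higher mean in LPtau than in LP, with a median of 0.448 (all genes 0.019), and 20 had all LPtau arrays above all LP arrays (9.03% of all genes). Limma called 0 members (0.022% of all genes), and 23 had an unadjusted p under 0.05 (12.9%). This comparison shares the LP arrays with LP minus NP, so the low LP values enter both. Dlat had the smallest p, with 9.15, 9.64 and 9.11 in LP and 10.14, 10.34 and 10.24 in LPtau muscle (0.94, SE 0.18, adjusted p = 0.115 with limma). Uqcr11 measured 11.75, 11.46 and 11.66 in LPtau (0.80, SE 0.18, adjusted p = 0.149). Uqcrq, another small subunit, measured 10.53, 11.01 and 10.26 in LP and 12.15, 11.46 and 11.46 in LPtau (1.09, SE 0.25, adjusted p = 0.151). In LP minus NP, only 2 of the 4 Uqcrq probe sets were negative in muscle. The LPtau arrays of these 3 genes lay above all LP arrays. Suclg2 (-0.02) and Atp5a1 (-0.02) were the 2 members not higher. Fast fibre markers had a median of 1.23 in the same comparison, with 8 of 8 positive and 2 called (0.022% of all genes), and skeletal muscle markers one of 0.309. Their part in the members' values was not tested.

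Against NP, LPtau muscle had a median of -0.091 with 17 of 44 positive, 0 called by limma (0% of all genes) and 0 at an unadjusted p under 0.05 (3.75%). Uqcrq (0.53, SE 0.25), Atp5e, the epsilon subunit of ATP synthase (0.52, SE 0.29), and Uqcr10 (0.40, SE 0.23) had the smallest p, each with an adjusted p of 0.84. The LPtau muscle array numbered 1 split the members by complex. Relative to the NP mean, its group means were -0.57 for pyruvate dehydrogenase, -0.57 for the TCA cycle and -0.86 for complex II, and 0.14 for complex III and 0.00 for ATP synthase. The other 2 LPtau muscle arrays lay between 0.01 and 0.15 for all 5 groups. In that array Sdhc was at 9.31 and Sdhd at 9.84, where the other 2 had 10.88 to 11.02, while Sdhb was at 11.70, beside 11.70 and 11.87. Atp5e was at 13.04 there and at 11.69 and 11.96 in the others, and Uqcr10 was at 12.26 beside 11.38 and 11.54. Its beta-actin measure of RNA integrity was 0.16, within the 0.16 to 0.28 of NP muscle. Without it and the LP array numbered 1, the median of LP minus NP in muscle stayed negative, within the range of -0.625 to -0.386 found over all 22 alternatives.

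**Figure D4:**
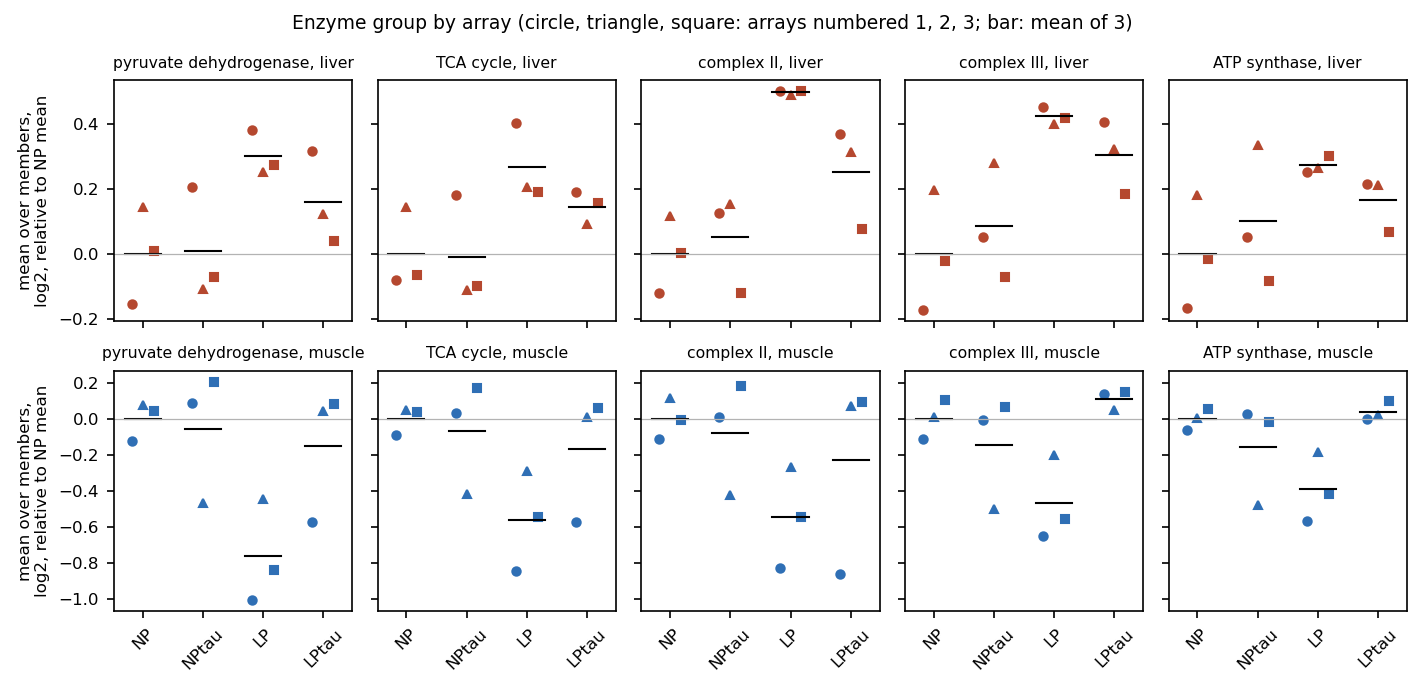
Mean over the members of each enzyme group in each array (y axis, log2, relative to the NP mean of the tissue) by maternal diet (x axis), liver above and muscle below; circles, triangles and squares are arrays numbered 1, 2 and 3, and bars are means of 3. LP liver arrays lie above all NP arrays in each of the 5 groups, LP muscle arrays lie below them, and the LPtau muscle array numbered 1 is low in pyruvate dehydrogenase, TCA cycle and complex II and not in complex III or ATP synthase.

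In liver taurine was followed by smaller values than LP alone. LPtau minus LP had a median of -0.139 with 39 of 44 negative, 0 called by limma (0.066% of all genes), 5 at an unadjusted p under 0.05 (8.48%) and 11 with all LPtau arrays below all LP arrays (7.01%). Sdhd led, with 11.70, 11.73 and 11.85 in LP and 11.60, 11.43 and 11.15 in LPtau (-0.36, SE 0.13, adjusted p = 0.446 with limma). Atp5g3 (-0.23, SE 0.09) and Pdhb (-0.26, SE 0.11) came next, and the arrays of all 3 were separate. Against NP, LPtau liver was higher in 41 of 44 members with a median of 0.210, 0 called (0% of all genes), 10 at an unadjusted p under 0.05 (6.77%) and 12 with all arrays higher (12.2%). Sdha, with 11.59, 11.54 and 11.39 in LPtau, had the smallest p (0.35, SE 0.10, adjusted p = 0.59 with limma), before Atp5a1 (0.28, SE 0.09) and Uqcrc1 (0.32, SE 0.11).

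The taurine difference was itself compared between the tissues, a comparison added after the values were seen. LPtau minus LP in liver less that in muscle was negative for 44 of 44 members, with a median of -0.543 (all genes 0.002). Limma called 0 members (0.258% of all genes), and 23 had an unadjusted p under 0.05 (14.4%). The lowest was Uqcrq at -1.15 and the highest Suclg2 at -0.10.

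With normal protein, taurine was followed by little difference in the members. NPtau minus NP had a median of 0.051 in liver, with 33 of 44 positive, and limma called 0 (0% of all genes) with 0 at an unadjusted p under 0.05 (2.75%). Uqcr11 had the smallest p there (0.33, SE 0.22, adjusted p = 0.995 with limma), from 11.02, 11.77 and 10.94 in NPtau. In muscle the median was -0.126 with 41 of 44 negative, 0 called (0%) and 0 at an unadjusted p under 0.05 (0.484%). Uqcrh had the smallest p (-0.22, SE 0.16), from 12.49, 12.08 and 12.52 in NPtau. The NPtau muscle array numbered 2 carried most of this: its mean over the members was -0.46 relative to NP, while the other 2 NPtau arrays were at 0.03 and 0.09.

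LP and normal protein were also compared with taurine on both sides, in arrays that LP minus NP did not use. In liver LPtau minus NPtau was positive for 40 of 44 members with a median of 0.129 (all genes 0.012), and 9 of 9 complex III members were positive. Limma called 0 (0% of all genes), with 5 at an unadjusted p under 0.05 (4.74%) and 8 with all arrays higher (5.68%). Sdha measured 11.26, 11.17 and 11.23 in NPtau and 11.59, 11.54 and 11.39 in LPtau (0.29, SE 0.10, adjusted p = 0.999 with limma), with no overlap. In muscle the median was 0.073 with 26 of 44 positive, 0 called (0%) and 4 at an unadjusted p under 0.05 (5.45%). Complex III (8 of 9) and ATP synthase (13 of 15) were mostly positive there, while 8 of 11 TCA cycle members, 4 of 5 of pyruvate dehydrogenase and 3 of 4 of complex II were negative. Atp5o, a stalk subunit, had the smallest p, with 12.58, 12.15 and 12.53 in NPtau and 13.17, 12.65 and 12.77 in LPtau (0.44, SE 0.17, adjusted p = 0.737).

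The interaction, which asks whether the protein difference was the same with and without taurine, had a median of -0.170 in liver and 0.566 in muscle, where 43 of 44 members were positive. Limma called 0 in either tissue (0% of all genes in both). At an unadjusted p under 0.05 there was 1 member in liver, Atp5a1 (-0.30, SE 0.12; 8.46% of all genes), and there were 20 in muscle (6.56%). The smallest p in muscle were those of Dlat (0.98, SE 0.26, adjusted p = 0.64 with limma), Uqcr11 (0.93, SE 0.26) and Cyc1 (1.01, SE 0.28).

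**Figure D5:**
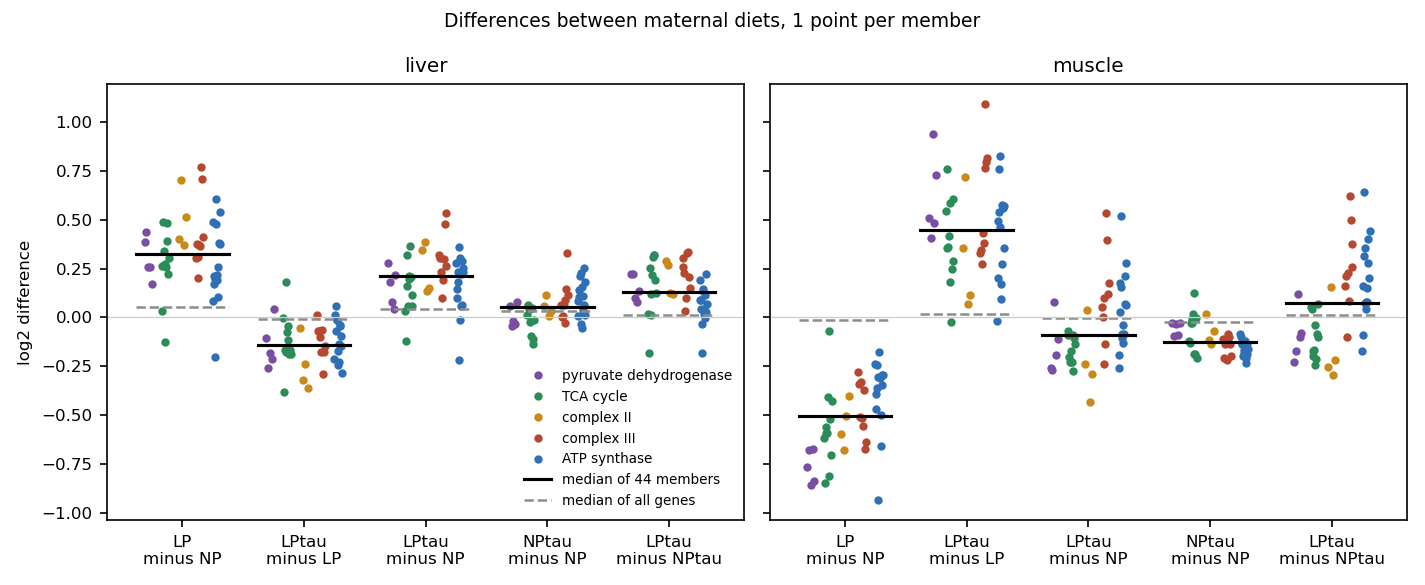
Log2 difference of each of the 44 members (y axis) in 5 comparisons of maternal diets (x axis) in liver and muscle, coloured by enzyme group; the solid line is the members' median and the dashed line that of all genes. The medians in liver are 0.323, -0.139, 0.210, 0.051 and 0.129 and in muscle -0.505, 0.448, -0.091, -0.126 and 0.073, from left to right; comparisons that share a diet share its arrays.

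Genes that work around these enzymes were examined as lists. The ADP, phosphate and metabolite carriers of the inner and outer membrane were positive in 11 of 12 in LP liver (median 0.262) and negative in 11 of 12 in LP muscle (median -0.420), with 0 called by limma and 3 in each tissue at an unadjusted p under 0.05 (22.7% of all genes in liver and 10.8% in muscle). Slc25a5, an ADP/ATP carrier, had the smallest p in liver (0.49, SE 0.13, adjusted p = 0.0678), and Slc25a11, the oxoglutarate carrier, in muscle (-0.82, SE 0.22, adjusted p = 0.172). A list of assembly factors of complexes II, III and ATP synthase also held Atp5md and the ATP synthase inhibitor Atpif1. It was positive in 12 of 16 in liver (median 0.179) and negative in 15 of 16 in muscle (median -0.422). Atp5md, a small protein of the ATP synthase dimer and not an assembly factor, rose by 0.48 in liver (SE 0.11, adjusted p = 0.0497 with limma). It was the 1 call of this list (2.34% of all genes were called). Bcs1l, which inserts the Rieske protein into complex III, had the smallest p in muscle (-0.93, SE 0.21, adjusted p = 0.113). Of 13 genes beside the cycle, 8 were positive in liver (median 0.060) and 1 was called (2.34% of all genes were). Mdh1, the cytosolic malate dehydrogenase of the malate shuttle, rose by 0.73 (SE 0.15, 1.66-fold, adjusted p = 0.0374 with limma). In muscle 10 of 13 were negative (median -0.109), with Cycs, cytochrome c, at -0.82 (SE 0.25, adjusted p = 0.229).

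A list of pyruvate dehydrogenase kinases and phosphatases, pyruvate carriers and Pcx (pyruvate carboxylase) was negative in 6 of 9 in liver (median -0.161). In muscle 9 of 9 were negative (median -0.429). Limma called 0, with 2 and 4 at an unadjusted p under 0.05 (22.7% and 10.8% of all genes). The list pools kinases that switch the complex off with phosphatases that reverse this, so its signs do not measure activity. Pdk4, the kinase that shuts the complex off in fasting, was at -3.02 in muscle (SE 0.62, 8.09-fold lower, adjusted p = 0.093), and Pdk1 at -0.53 in liver (SE 0.14, adjusted p = 0.0697). Regulators of mitochondrial biogenesis were negative in 13 of 17 in each tissue, with medians of -0.221 in liver and -0.205 in muscle, 0 called by limma, and 4 and 1 at an unadjusted p under 0.05, shares near that of all genes in liver (22.7%) and below it in muscle (10.8%). Gabpa, the DNA-binding subunit of GABP, was at -0.52 in liver (SE 0.14, adjusted p = 0.0721) and -0.10 in muscle (SE 0.20). Ppargc1a, the coactivator PGC-1 alpha, was at -0.18 (SE 0.64) in liver and -0.91 (SE 0.78) in muscle, Nrf1 at 0.12 and 0.21, and Esrra, an oestrogen-related receptor, at 0.16 and -0.21.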

How the data were processed

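Total RNA was biotin-labelled and hybridised to Affymetrix mouse arrays of 45101 probe sets. Per the submitters' processing notes, the authors used RMA and R 2.7.0 for the deposited log2 values; MAS5 is named there too, without its role. Per the labels, liver and muscle arrays were normalized separately. Deposited values ran from 2.75 to 15.01, array medians from 5.35 to 5.39 (liver) and from 4.95 to 5.04 (muscle), and no further normalization was applied. Arrays give no read depth, so their number limits the precision.

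Of the probe sets 34945 had 1 gene symbol, 932 several, 9160 none, and 64 were controls. Genes were tested by lmFit, contrasts.fit and eBayes of limma 3.58.1 (R 4.3.3) on 4 diet means over the 12 arrays of a tissue, and on 8 means over all 24 arrays for the comparison of tissues, where the brightest probe set over the 24 arrays was used. For 3 members (Dlat, Uqcrc2, Atp5k) the liver and muscle probe sets differed. P-values were adjusted by Benjamini and Hochberg over 18193 genes. Fits were tested on simulated data. Named with values were the largest and smallest LP minus NP difference in each group, called members, the 3 smallest p of each comparison, the main catalytic genes and the c subunit genes. From other lists, called genes and up to 2 with the smallest p were named; the 4 biogenesis regulators without such a p, and single members in the outlying LPtau array, were named after their values were seen. Members and lists were chosen with earlier results of these data known. Replicate numbers did not pair diets: deviations of same-numbered arrays correlated from -0.21 to 0.42 in liver and from -0.44 to 0.34 in muscle, above 0.1 in 6 of 18 pairs each. Alternatives covered the probe set rule, normalization, filter, spread, pup sex, replicate block and left-out arrays.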

Additional observations from a re-analysis of the deposited data

Results flagged for a closer look

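For 9 members the LP minus NP difference in liver differed from that in muscle, by limma's test of the difference itself in a fit that treats the 24 arrays as independent. Liver less muscle was 1.542 for Atp5g1, 1.385 for Uqcr11, 1.382 for Sdhb, 1.152 for Pdha1, 1.124 for Dlat, 1.114 for Pdhb, 1.047 for Idh3b, 1.045 for Cyc1 and 0.887 for Uqcrh, each higher in 3 of 3 LP liver arrays and lower in 3 of 3 LP muscle arrays than in any NP array. With liver and muscle arrays paired by diet and number, 1 of the 9 was called, Atp5g1 (adjusted p = 0.0496 with limma), and the adjusted p of the other 8 ran from 0.0506 to 0.0823. Atp5g1 was measured here on the brighter of its 2 probe sets, and the other gave an LP minus NP difference of 0.164 in liver and 0.08 in muscle.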

How the results depend on the processing

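The median of the members kept its sign under every alternative run for LP minus NP (21 alternatives in liver, 0.252 to 0.408; 22 in muscle, -0.625 to -0.386), LPtau minus LP (-0.224 to -0.082 and 0.317 to 0.556) and the tissue comparisons (27 each, 0.675 to 0.987 and -0.682 to -0.458). It crossed 0 under some for NPtau minus NP (-0.011 to 0.109 in liver, -0.224 to 0.056 in muscle) and, in muscle, for LPtau minus NP (-0.16 to 0.061) and LPtau minus NPtau (-0.126 to 0.193). Counts of called members were less stable, and the cause was not tested. In LP minus NP in liver, the count of 1 became 2 with the replicate block, the mean of all probe sets, the probe set of highest variance, median centring, and the trend and robust spread, 0 with only 2 groups in the fit, and 0 to 5 when 1 array was left out. The call of Atp5a1 was lost with the mean of all probe sets and with the probe set of highest variance, where the 2 called were other members. The count of 0 in muscle became 2 with cyclic loess and 0 to 2 with 1 array left out, and for LPtau minus LP in muscle 3 and 0 to 1. The tissue comparison's 9 became 16 with cyclic loess, 5 with the sex covariate, 1 with liver and muscle paired by diet and number, and 2 to 18 with 1 array left out. The taurine tissue comparison's 0 became 1 with the probe set chosen on muscle arrays, 2 with cyclic loess and 0 to 3 with 1 array left out. The replicate block left 7 of the 9 tissue calls. Same-numbered arrays of different diets within a tissue shared only a number, while liver and muscle arrays of the same diet and number also had the same sex call in 12 of 12.

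Signs of single members reversed 21 times, most with the probe set. In liver LP minus NP, the mean of all probe sets gave 0.009 for Atp5pb, -0.096 for Cs and -0.004 for Dlat. The probe set of highest variance gave -0.024 for Atp5a1, -0.421 for Atp5g2, 0.222 for Atp5pb, -0.246 for Cs, -0.562 for Dlat, 0.021 for Ogdh, -0.387 for Sdha and -0.577 for Uqcr10 in liver, and 0.02 for Atp5g2 and 0.155 for Dlst in muscle. With 1 array left out, Cs ran from -0.118 to 0.163 and Idh3a from -0.029 to 0.587 in liver, Suclg2 from -0.223 to 0.117 in muscle, and Atp5pb from -0.008 to 0.179 in the tissue comparison. Without the LP and LPtau arrays numbered 1, Suclg2 was 0.117 and Atp5pb -0.008, and with cyclic loess Atp5pb was -0.035. The LPtau leave-outs of the tissue comparison, the pairing by diet and number and the joint leave-out were added after seeing the data.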
